A study of Mus musculus with 7 samples.

Results

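The mitochondrial ribosomal proteins are the nuclear-encoded proteins of the ribosome that works inside mitochondria. They were taken as every protein-coding gene whose mouse symbol begins with Mrpl, for the large subunit, or Mrps, for the small subunit, followed by a digit. The rule gave 78 of the 29517 genes in the count table, of which 49 belong to the large and 29 to the small subunit by symbol, and 5 pseudogenes with such symbols were left out. All 78 passed the filter on low counts, which kept 19185 genes for testing. The symbol is not always the place: Mrps30 and Mrps18a sit in the large subunit in known structures, and Mrps36 is now described as a component of the 2-oxoglutarate dehydrogenase complex.

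RNA-seq read counts were obtained from inguinal white adipose tissue, the subcutaneous fat pad of the groin, of Tm4sf5-/- mice (KO, 3 libraries) and of wild-type mice (WT, 4 libraries). Tm4sf5 encodes a membrane protein with 4 transmembrane passes, and the series asked what its loss does to this fat depot. Both groups were C57BL/6 mice on standard chow with no treatment, and how the allele was made, which part of the gene it removes, sex and age are not given in the labels used here. The design text calls the replicates biological and speaks of 3 per condition, whereas the labels list 4 WT libraries, and all 7 libraries were used. Totals ran from 49775077 to 50704542 counts in KO libraries and from 55717495 to 60241436 in WT libraries. The targeted gene was near the limit of detection, with 7, 6 and 17 counts in KO 1 to KO 3 and 33, 45, 47 and 20 counts in WT 1 to WT 4. The values of Tm4sf5 overlapped between the groups on the CPM scale, with a log2 fold change of -1.35 (SE 0.50, edgeR adjusted p = 0.177), so it checks the labels only weakly.

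The mitochondrial ribosome translates the few messages encoded by mitochondrial DNA, all of which make subunits of the respiratory chain and of ATP synthase. Its RNA core comes from the mitochondrial genome, whereas every protein of both subunits is encoded in the nucleus, made in the cytosol and imported. In adipose tissue the white adipocyte holds few mitochondria, and brown and beige adipocytes hold many.

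Many of these genes start close to a second gene that runs the other way, so that a short stretch of DNA lies between the starts. For 5 such stretches the sequence is shown because the member on one side and the gene on the other can be compared over the same bases. All are RefSeq sequence of GRCm38.p6, written 5′ to 3′ on the strand of the member that labels the sequence. Each runs from the partner's start to that member's start. Capitals mark a match to the letters bound by ETS factors (CCGGAAG) or by NRF1 (GCGCA, any base, GCGC). The stretches are chr8:71464708-71464925 on the plus strand between Abhd8 and Mrpl34, chr7:28741822-28741956 on the minus strand between Sars2 and Mrps12, and chr6:125192101-125192199 on the plus strand between Ncapd2 and Mrpl51. The others are chr13:14613038-14613241 on the minus strand between Psma2 and Mrpl32, and chr7:78783090-78783130 on the plus strand between Mrpl46 and Mrps11, both of which are members.
Mrpl34: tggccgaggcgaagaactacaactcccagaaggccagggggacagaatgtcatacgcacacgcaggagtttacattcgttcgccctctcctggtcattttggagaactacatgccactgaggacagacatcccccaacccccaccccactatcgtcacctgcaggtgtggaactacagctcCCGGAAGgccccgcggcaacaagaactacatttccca
Mrps12: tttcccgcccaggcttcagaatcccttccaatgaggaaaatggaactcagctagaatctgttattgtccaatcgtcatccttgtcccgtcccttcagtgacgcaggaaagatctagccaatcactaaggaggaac
Mrpl51: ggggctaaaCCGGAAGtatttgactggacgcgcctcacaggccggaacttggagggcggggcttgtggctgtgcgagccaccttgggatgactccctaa
Mrpl32: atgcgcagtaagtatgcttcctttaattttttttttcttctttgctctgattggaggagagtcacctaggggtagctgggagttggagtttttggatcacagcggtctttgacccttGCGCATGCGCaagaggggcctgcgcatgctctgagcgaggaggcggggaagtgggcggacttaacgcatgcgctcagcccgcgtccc
Mrps11: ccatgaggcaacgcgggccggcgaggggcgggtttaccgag

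Messages for the mitochondrial ribosome were higher in KO fat across both subunits, by a moderate and even amount. All 78 members had a log2 fold change above 0, where 46.9% of all tested genes did, and the median was 0.56 against -0.04 for all genes. The values ran from 0.11 for Mrpl52 to 1.05 for Mrpl34, and their interquartile range was 0.18 on the log2 scale, against 0.71 for all genes. That range was 0.14 for complex I subunits, 0.15 for mitochondrially encoded messages and 0.16 for cytosolic ribosomal proteins. An even change was thus not particular to the members. At an unadjusted p under 0.05, 68 of the 78 were higher in KO and 0 were lower, where 12.3% of all tested genes were higher and 9.51% lower. No member passed an adjusted p under 0.05 in edgeR's quasi-likelihood test, in which 0.00% of all genes passed, and the smallest adjusted p among members was 0.0956. DESeq2 placed 24 of 78 members higher at an adjusted p under 0.05, and 0 lower, against 5.54% of all genes higher and 4.77% lower, and limma-voom placed 0, against 0.00521% of all genes. Leaving out KO 1 left 41 members higher at an unadjusted p under 0.05, beside 6.94% of all genes. When libraries were scaled by total counts alone, the median of all genes moved to -0.35, and 72 of 78 members lay above 0 with a median of 0.22, where 24.9% of all genes did. Under that scaling 8 members were higher and 0 lower at an unadjusted p under 0.05, beside 3.62% of all genes higher and 25.4% lower.

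**Figure D1:**
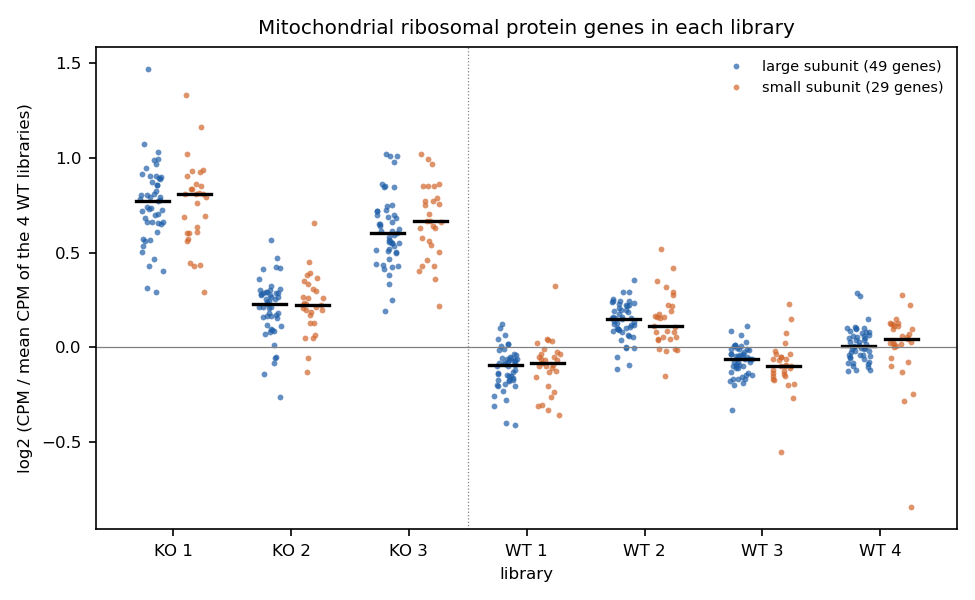
Each point is the CPM of 1 mitochondrial ribosomal protein gene in 1 library over its mean CPM in the 4 WT libraries, on a log2 axis, and black bars are medians of the 49 large-subunit (blue) and 29 small-subunit (orange) genes. The medians over all 78 genes are 0.78, 0.23 and 0.63 in KO 1 to KO 3 and lie between -0.09 and 0.14 in WT libraries.

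Members shared the place of KO 2 among the KO libraries, and the order of the other libraries differed between genes. The summed level of the 49 large-subunit genes was 2470, 1674 and 2267 CPM in KO 1 to KO 3, and 1343, 1591, 1378 and 1466 CPM in WT 1 to WT 4. The summed level of the 29 small-subunit genes was 1309, 900.2 and 1223 CPM in KO 1 to KO 3, and 724.3, 857.5, 729.95 and 771.9 CPM in WT 1 to WT 4. Both sums were higher in every KO library than in any WT library, with KO 2 close to WT 2, the highest of the WT libraries. KO 2 was the lowest KO library for 78 of 78 members, and the highest KO library was KO 1 for 55 members and KO 3 for 23. WT 2 was the highest WT library for 56 of 78, and the lowest was WT 1 for 37 and WT 3 for 35. KO 1 lay above every WT library for 76 members, KO 3 for 75 and KO 2 for 53, and those 53 are the genes whose groups do not overlap (higher in 11.4% and lower in 8.92% of all tested genes). As a share of all counted reads, before any scaling, the members took 0.302%, 0.231% and 0.333% in KO 1 to KO 3 and 0.218%, 0.284%, 0.226% and 0.249% in WT 1 to WT 4, and on that measure KO 2 fell within the WT range.

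The large and small subunits had similar medians and overlapping ratios. The median log2 fold change was 0.53 for the large and 0.58 for the small subunit, a difference of -0.04, given as a description with no test. Of the large-subunit genes 44 of 49, and of the small-subunit genes 24 of 29, were higher at an unadjusted p under 0.05 (12.3% of all tested genes). Groups did not overlap, with KO higher, for 34 and 19 of them (11.4% of all tested genes). The ratio of summed large-subunit to summed small-subunit CPM was 1.89, 1.86 and 1.85 in KO 1 to KO 3, and 1.85, 1.86, 1.89 and 1.90 in WT 1 to WT 4. The ratio averaged 1.87 ± 0.0176 in KO and 1.87 ± 0.0229 in WT (SD, n = 3 and n = 4), so the groups overlapped throughout. Placing Mrps30 and Mrps18a with the large subunit and leaving out Mrps36, an assignment chosen after the data were seen, gave medians of 0.53 and 0.57.

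**Figure D2:**
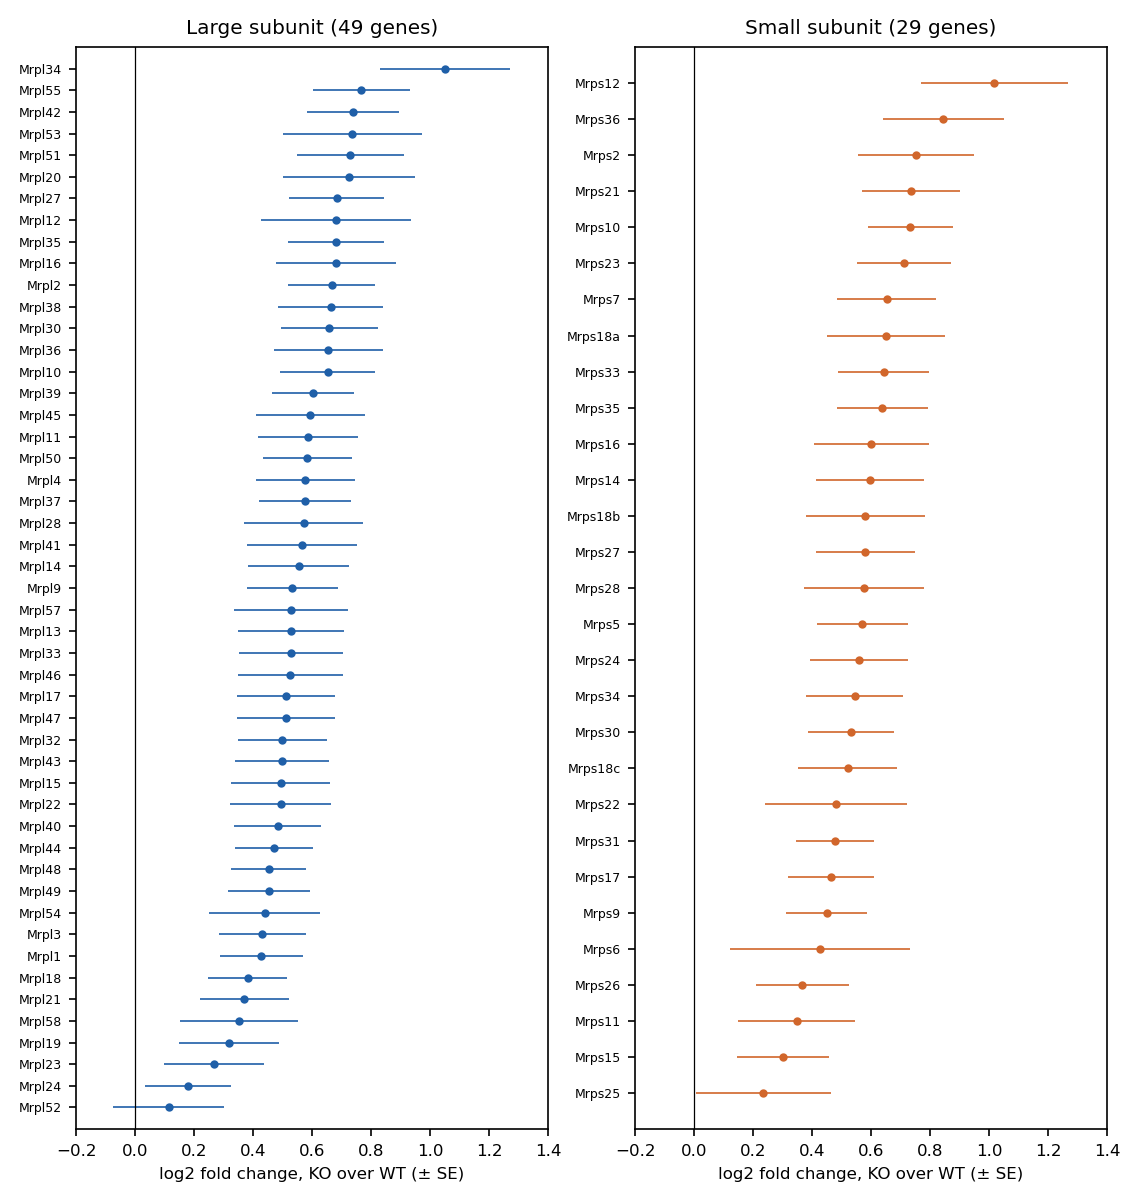
Log2 fold changes (KO over WT) are plotted for each of the 49 large-subunit (left) and 29 small-subunit (right) genes, with bars of 1 standard error, ordered by size. Every point lies right of 0, from 0.11 for Mrpl52 to 1.05 for Mrpl34, and the small-subunit genes run from 0.24 for Mrps25 to 1.02 for Mrps12.

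Mrpl34, a small basic protein of the large subunit with a bacterial counterpart, had the highest fold change. It stood at 53.3, 28.5 and 37.9 CPM in KO 1 to KO 3 and at 18.01, 18.6, 17.2 and 23.3 CPM in WT 1 to WT 4. The groups do not overlap, and the mean was 39.9 ± 12.5 CPM in KO and 19.3 ± 2.74 CPM in WT (SD, n = 3 and n = 4). On the log2 scale the fold change was 1.05 (SE 0.22, edgeR adjusted p = 0.0956, DESeq2 adjusted p = 0.00427). The gene lies on chromosome 8 of GRCm38.p6 from 71464926 to 71465753. Mrps12, a protein of the decoding centre of the small subunit, was next. Its level was 30.4, 19.0 and 24.0 CPM in KO 1 to KO 3 and 15.2, 10.9, 8.23 and 14.1 CPM in WT 1 to WT 4. All 3 KO libraries lay above the highest WT library, and Mrps12 was higher by 1.02 on the log2 scale (SE 0.25, edgeR adjusted p = 0.0997, DESeq2 adjusted p = 0.0118). Mrps12 lies on chromosome 7 from 28739641 to 28741821.

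Next in size in the large subunit were Mrpl55 and Mrpl42. Mrpl55, a protein without a bacterial counterpart, was at 34.2, 23.1 and 28.0 CPM in KO 1 to KO 3 and at 15.8, 19.1, 15.7 and 16.2 CPM in WT 1 to WT 4. The fold change on the log2 scale was 0.77 (SE 0.16, edgeR adjusted p = 0.0957). Mrpl42, another mitochondria-specific protein, was at 82.6, 59.1 and 79.5 CPM in KO 1 to KO 3 and at 39.3, 48.7, 47.0 and 42.0 CPM in WT 1 to WT 4, with a log2 fold change of 0.74 (SE 0.16, edgeR adjusted p = 0.0956). Neither gene's groups overlap. Mrpl2, a conserved protein close to the peptidyl transferase centre, averaged 49.0 ± 8.66 CPM in KO and 30.9 ± 1.87 CPM in WT. Mrpl27, whose bacterial counterpart reaches towards that centre, averaged 41.2 ± 8.27 CPM in KO and 25.7 ± 1.72 CPM in WT. Mrpl39 averaged 51.4 ± 7.14 CPM in KO and 33.8 ± 2.66 CPM in WT (SD, n = 3 and n = 4 for each). Their log2 fold changes were 0.67, 0.68 and 0.60, each with an edgeR adjusted p of 0.0966, and none of these groups overlap.

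In the small subunit Mrps10, which has a bacterial counterpart, had the smallest p. It was at 43.0, 30.8 and 38.6 CPM in KO 1 to KO 3 and at 21.8, 22.3, 21.7 and 24.4 CPM in WT 1 to WT 4, with a log2 fold change of 0.73 (SE 0.14, edgeR adjusted p = 0.0956, DESeq2 adjusted p = 0.00423). The WT libraries lay close together and all KO libraries lay above them. Mrps23 and Mrps35, which have no bacterial counterpart, had log2 fold changes of 0.71 (SE 0.16) and 0.64 (SE 0.15), and Mrps33, likewise mitochondria-specific, had 0.64 (SE 0.15). Mrps36 was at 43.9, 23.6 and 38.5 CPM in KO 1 to KO 3 and at 18.6, 20.2, 19.4 and 20.5 CPM in WT 1 to WT 4. Its log2 fold change of 0.85 (SE 0.21, edgeR adjusted p = 0.0988) was the second highest of the small-subunit genes, and KO 2 stood only a little above the WT libraries.

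The lowest fold changes were those of Mrpl52 and Mrpl24 in the large and of Mrps25 and Mrps15 in the small subunit. Mrpl52, a mitochondria-specific protein of the large subunit, was at 23.2, 15.8 and 22.5 CPM in KO 1 to KO 3 and at 16.4, 23.2, 17.9 and 18.1 CPM in WT 1 to WT 4, with a log2 fold change of 0.11 (SE 0.19). KO 2 was the lowest of all 7 libraries and the groups overlap widely. Mrpl24, which has a bacterial counterpart, was at 67.0, 54.4 and 61.6 CPM in KO 1 to KO 3 and at 48.8, 60.1, 47.1 and 59.7 CPM in WT 1 to WT 4, with a log2 fold change of 0.18 (SE 0.15). Mrps25 was at 41.7, 32.8 and 45.9 CPM in KO 1 to KO 3 and at 28.4, 48.9, 30.3 and 28.8 CPM in WT 1 to WT 4, so WT 2 was the highest of all libraries. Mrps25 had a log2 fold change of 0.24 (SE 0.23) and Mrps15 had 0.30 (SE 0.16). Scaled by total counts alone, these 4 genes had log2 fold changes of -0.21, -0.15, -0.09 and -0.03, while Mrpl23 had -0.06 and Mrpl19 had -0.00, which makes 6 members below 0. The 10 members that missed an unadjusted p under 0.05 were these 6, Mrpl58, Mrps11, Mrps22 and Mrps6. Mrpl58 is a peptidyl-tRNA hydrolase built into the large subunit.

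Some further members were chosen after their values were seen, for what their proteins do. Mrps18a, Mrps18b and Mrps18c are paralogs of 1 bacterial protein. Mrps18a, which sits in the large subunit, was at 45.8, 29.7 and 47.5 CPM in KO 1 to KO 3 and at 23.9, 26.0, 22.8 and 31.7 CPM in WT 1 to WT 4, with a log2 fold change of 0.65 (SE 0.20). Mrps18b had 0.58 (SE 0.20) and Mrps18c had 0.52 (SE 0.17), so the paralogs lay within about 1 standard error of one another. Only Mrps18c had groups that do not overlap. Mrps30, the other member placed in the large subunit by structure, was at 46.7, 34.1 and 44.7 CPM in KO 1 to KO 3 and at 28.3, 31.3, 26.9 and 29.4 CPM in WT 1 to WT 4, a log2 fold change of 0.53 (SE 0.14). Mrpl12, a protein of the stalk that meets the translation factors, was at 134, 80.6 and 155 CPM in KO 1 to KO 3 and at 57.7, 98.2, 74.9 and 76.3 CPM in WT 1 to WT 4. WT 2 lay above KO 2, and the log2 fold change of Mrpl12 was 0.68 (SE 0.25). Mrpl32, which is cleaved by a mitochondrial protease before it is built in, was at 28.2, 21.5 and 25.8 CPM in KO 1 to KO 3 and at 16.4, 20.7, 16.9 and 17.3 CPM in WT 1 to WT 4. Its groups do not overlap, with a log2 fold change of 0.50 (SE 0.15).

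Spread within a group differed between members and between genotypes. The coefficient of variation of a member had a median of 19.4% over KO libraries and 9.79% over WT libraries, where the medians over all tested genes were 22.9% and 22.4%. Mrps6 was the most variable in WT, at 33.8%. It was at 70.8, 43.4 and 46.3 CPM in KO 1 to KO 3 and at 37.1, 53.1, 46.6 and 22.2 CPM in WT 1 to WT 4, and its log2 fold change was 0.43 (SE 0.31). Exons of Mrps6 overlap those of Slc5a3 on the same strand. Reads in the shared bases could belong to either gene, and how they were counted is not given. Mrpl20 was the most variable in KO, at 31.4%. Mrps26, a mitochondria-specific protein, was at 36.2, 25.1 and 32.7 CPM in KO 1 to KO 3 and at 22.8, 27.1, 22.7 and 24.7 CPM in WT 1 to WT 4, where WT 2 lay above KO 2. Its log2 fold change was 0.37 (SE 0.16) at an unadjusted p of 0.0477 in edgeR's test across all genes.

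Levels per kilobase of the principal transcript spread widely among members that end up in 1 particle. Mrps21, a small conserved protein, was the highest, at 142 CPM per kilobase in KO and 85.5 in WT. Mrpl42 followed at 112 in KO and 66.9 in WT, and Mrpl30 stood at 94.3 in KO and 59.7 in WT. Mrpl47 was the lowest at 4.69 in KO and 3.29 in WT, and Mrpl19 stood at 5.27 in KO and 4.23 in WT. The long transcripts of some members hold much untranslated sequence, and which transcript is used here was not measured, so these levels depend on the transcript chosen. The log2 fold changes of the highest, 0.74 for Mrps21, 0.74 for Mrpl42 and 0.66 for Mrpl30, and of the lowest, 0.51 for Mrpl47 and 0.32 for Mrpl19, are given as values without a test of level against change.

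The 5 proteins of the mitochondrial ribosome whose genes carry other symbols were higher as well, all at an unadjusted p under 0.05 and none at an adjusted p under 0.05 in edgeR's test. Ptcd3, a pentatricopeptide repeat protein of the small subunit, was at 84.3, 63.2 and 93.7 CPM in KO 1 to KO 3 and at 46.0, 50.3, 51.3 and 54.2 CPM in WT 1 to WT 4. Its groups do not overlap, and on the log2 scale Ptcd3 was higher by 0.67 (SE 0.16, edgeR adjusted p = 0.0966). Gadd45gip1, a large-subunit protein at the exit of the nascent chain, had 0.64 (SE 0.22). Aurkaip1 and Chchd1, small-subunit proteins, had 0.51 (SE 0.18) and 0.46 (SE 0.18). Dap3, a GTP-binding protein of the small subunit, had 0.35 (SE 0.15), and its groups overlapped. With these 5 included, 73 of 83 genes were higher at an unadjusted p under 0.05 (12.3% of all tested genes), and the median stayed at 0.56.

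The RNA partners of these proteins were counted in a library made from polyadenylated RNA, so the ribosomal RNA values may not follow the amount in the tissue. mt-Rnr1, the RNA of the small subunit, was at 2655, 717.8 and 958.4 CPM in KO 1 to KO 3 and at 524.1, 346.7, 148.9 and 672.8 CPM in WT 1 to WT 4. mt-Rnr2, the RNA of the large subunit, was at 3863, 1173 and 1415 CPM in KO 1 to KO 3 and at 765.97, 554.6, 266.7 and 1009.7 CPM in WT 1 to WT 4. Both separated the groups, with log2 fold changes of 1.77 (SE 0.59) and 1.73 (SE 0.54). The 13 mitochondrially encoded messages, which this ribosome translates, were all higher at an unadjusted p under 0.05 (12.3% of all tested genes). Their median log2 fold change was 1.15. Among them mt-Nd1 had 1.39 (SE 0.32), mt-Nd3 1.32 (SE 0.30), mt-Nd4l 1.12 (SE 0.25) and mt-Nd6 1.07 (SE 0.24), all subunits of complex I. These messages took 18.4%, 16.0% and 15.8% of counts in KO 1 to KO 3 and 9.75%, 8.04%, 8.01% and 11.9% in WT 1 to WT 4.

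The factors that work with the mitochondrial ribosome were higher by less. Of 14 translation factors tested, 9 were higher and 0 lower at an unadjusted p under 0.05, with a median log2 fold change of 0.37. For all tested genes the shares were 12.3% higher and 9.51% lower. Tufm, the elongation factor that brings aminoacyl-tRNA, averaged 131 ± 33.4 CPM in KO and 84.2 ± 6.99 CPM in WT (SD, n = 3 and n = 4), with a log2 fold change of 0.64 (SE 0.19). Its exchange factor Tsfm had 0.60 (SE 0.18), the translocase Gfm1 had 0.60 (SE 0.17), and Gfm2, which acts in ribosome recycling, had 0.51 (SE 0.12). Of 24 genes for assembly and ribosomal RNA modification, 10 were higher and 0 lower at an unadjusted p under 0.05 (median 0.30). Mterf4, which acts in large-subunit assembly, was at 20.7, 14.2 and 16.7 CPM in KO 1 to KO 3 and at 10.4, 8.41, 8.45 and 10.5 CPM in WT 1 to WT 4, with a log2 fold change of 0.87 (SE 0.18). The assembly GTPase Mtg1 had 0.72 (SE 0.17), and Mpv17l2 and Malsu1, both of which act in ribosome assembly, had 0.79 (SE 0.21) and 0.59 (SE 0.15).

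Of 20 mitochondrial aminoacyl-tRNA synthetase and amidotransferase genes, 10 were higher and 0 lower at an unadjusted p under 0.05 (median 0.31). Among all tested genes 12.3% were higher and 9.51% lower. Iars2 had 0.54 (SE 0.14), Fars2 0.65 (SE 0.15) and Vars2 0.49 (SE 0.15) on the log2 fold change scale. Lars2, for leucine, stood apart at 825 CPM in KO 1, with 118 and 80.4 CPM in KO 2 and KO 3 and 52.8, 53.5, 56.3 and 68.4 CPM in WT 1 to WT 4. The size of its log2 fold change, 2.56 (SE 0.73), therefore leans on KO 1, the library that was also highest in mt-Rnr1 and mt-Rnr2. KO 2 and KO 3 also lay above every WT library for Lars2. Scaled by total counts alone, the medians of the assembly and synthetase lists were -0.03 and -0.02, and that of the translation factors was 0.06.

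Genes that regulate mitochondrial gene expression did not move as 1 group. Of 15, 5 were higher and 1 was lower at an unadjusted p under 0.05. Over all tested genes 12.3% were higher and 9.51% lower, so 1 lower gene of 15 is near that share. The median log2 fold change of the 15 was 0.30, and scaled by total counts alone it was -0.02. Esrra, a nuclear receptor of mitochondrial genes, was at 101, 63.8 and 113 CPM in KO 1 to KO 3 and at 51.7, 62.6, 50.7 and 60.8 CPM in WT 1 to WT 4, with a log2 fold change of 0.71 (SE 0.20). Esrrg, its relative, had 0.66 (SE 0.21) at a low level, and Tfb2m, a mitochondrial transcription factor, had 0.75 (SE 0.22). Myc was lower at an unadjusted p under 0.05, with 14.4, 18.2 and 20.3 CPM in KO 1 to KO 3 and 20.5, 31.1, 24.2 and 27.5 CPM in WT 1 to WT 4, a log2 fold change of -0.55 (SE 0.19). Outside the rule for named genes, and chosen after their values were seen, the factors whose motif letters were searched had -0.21 for Nrf1, 0.06 for Gabpa and -0.08 for Yy1, each with an unadjusted p above 0.05.

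**Figure D3:**
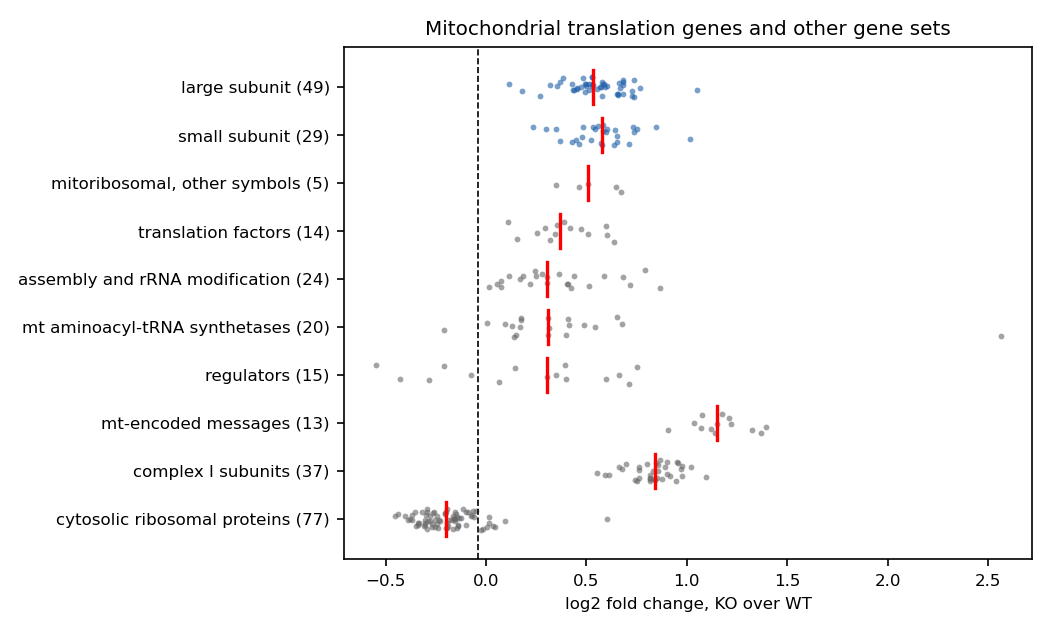
Each point is 1 gene's log2 fold change (KO over WT), in rows by gene set with the number of genes in brackets, red bars are set medians, and the dashed line is the median of all tested genes (-0.04). The mitochondrial ribosomal protein genes (blue, medians 0.53 and 0.58) lie between the complex I subunits (median 0.84) and the cytosolic ribosomal proteins (median -0.20), and the far point among synthetases is Lars2.

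The mitochondrial ribosome was set beside the cytosolic ribosome and beside complex I of the respiratory chain. The 77 cytosolic ribosomal protein genes had a median log2 fold change of -0.20, with 0 higher and 0 lower at an unadjusted p under 0.05. Summed CPM of the 78 members was 18.6%, 13.1% and 12.7% of the summed CPM of cytosolic ribosomal proteins in KO 1 to KO 3, and 10.4%, 7.43%, 8.99% and 8.05% in WT 1 to WT 4. The groups do not overlap, and this ratio of 2 sums within a library does not depend on how libraries are scaled. The 37 structural subunits of complex I had a median log2 fold change of 0.84. At an unadjusted p under 0.05, 36 of them were higher, beside 12.3% of all tested genes. Against complex I the members went the other way, at 51.9%, 60.4% and 58.8% of its summed CPM in KO 1 to KO 3 and 68.9%, 67.9%, 66.7% and 67.8% in WT 1 to WT 4. Here too every KO library lay apart from every WT library, so the messages of the mitochondrial ribosome were higher in KO by less than those of a complex whose mitochondrially encoded subunits it makes.

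**Figure D4:**
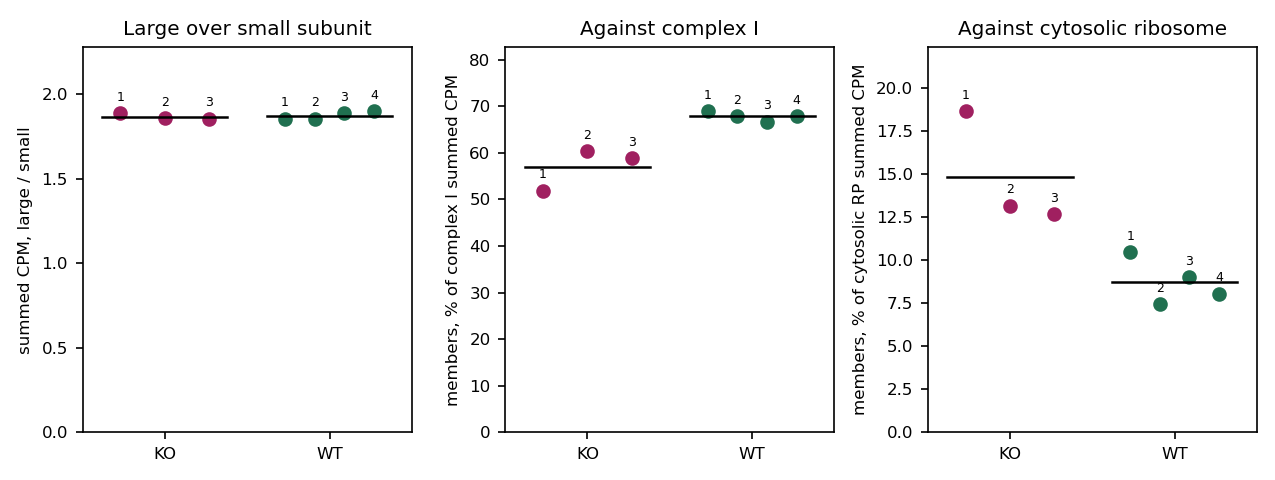
Each point is 1 library, numbered, with bars at the group means, and the axes start at 0. The left panel is the ratio of summed large-subunit to small-subunit CPM, where the groups overlap near 1.87, and the other panels give summed CPM of the 78 members as a percent of complex I (51.9% to 60.4% in KO, 66.7% to 68.9% in WT) and of cytosolic ribosomal proteins (12.7% to 18.6% in KO, 7.43% to 10.4% in WT).

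A gene that starts next to a member, on the opposite strand, served as a comparison within the same stretch of DNA. Such a head-to-head neighbour, with starts at most 1000 bases apart, or overlapping by at most 300, was found for 27 members in 26 pairs, and in 25 of these the neighbour is no member. The neighbours had a median log2 fold change of 0.06, against 0.57 for the members of those pairs. All 25 members were higher at an unadjusted p under 0.05, and of their neighbours 4 were higher and 1 was lower, near the 12.3% and 9.51% of all tested genes. The member had the higher log2 fold change in 20 of the 25 pairs. The upper quartile of all tested genes was 0.32, and the lowest member in these pairs, Mrpl21, had 0.37. Most genes taken from anywhere would thus also lie below such a member. The ratio of member to neighbour in each library was higher in KO without overlap in 9 pairs and lower without overlap in 1. The share for members paired with unrelated genes was not computed.

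Neighbours described by name were chosen after their values were seen, mostly for the stretches whose sequence is shown. Abhd8, next to Mrpl34, was at 13.9, 11.7 and 16.9 CPM in KO 1 to KO 3 and at 14.9, 21.8, 15.5 and 19.5 CPM in WT 1 to WT 4, a log2 fold change of -0.34 (SE 0.20) beside 1.05 for Mrpl34. Sars2, the mitochondrial seryl-tRNA synthetase gene next to Mrps12, had 0.14 (SE 0.22) beside 1.02 for Mrps12, although both products serve mitochondrial translation. Ncapd2, a condensin subunit, was at 24.4, 27.1 and 29.8 CPM in KO 1 to KO 3 and at 39.3, 30.5, 36.3 and 47.5 CPM in WT 1 to WT 4. Its log2 fold change was -0.50 (SE 0.17), while Mrpl51 across 99 bases had 0.73 (SE 0.18). Psma2, a proteasome subunit, had 0.28 (SE 0.15) beside 0.50 (SE 0.15) for Mrpl32. Mrps11 and Mrpl46, members that share a stretch of 41 bases, had 0.35 (SE 0.20) and 0.53 (SE 0.18). In 5 pairs the neighbour had the higher value (Wdfy1, Apba3, Lrrc46, Ndufs6 and Ndufb5), and the last pair of these encode complex I subunits. Ndufs6 had 0.90 (SE 0.20) beside 0.66 (SE 0.18) for Mrpl36, and Ndufb5 had 0.81 (SE 0.19) beside 0.51 (SE 0.17) for Mrpl47. By GENCODE, exons overlap on opposite strands within both of these pairs, between Mrps11 and Mrpl46, and in some other pairs such as Wdfy1 and Mrpl44. With the strand setting of the counting not given, such pairs may share reads.

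**Figure D5:**
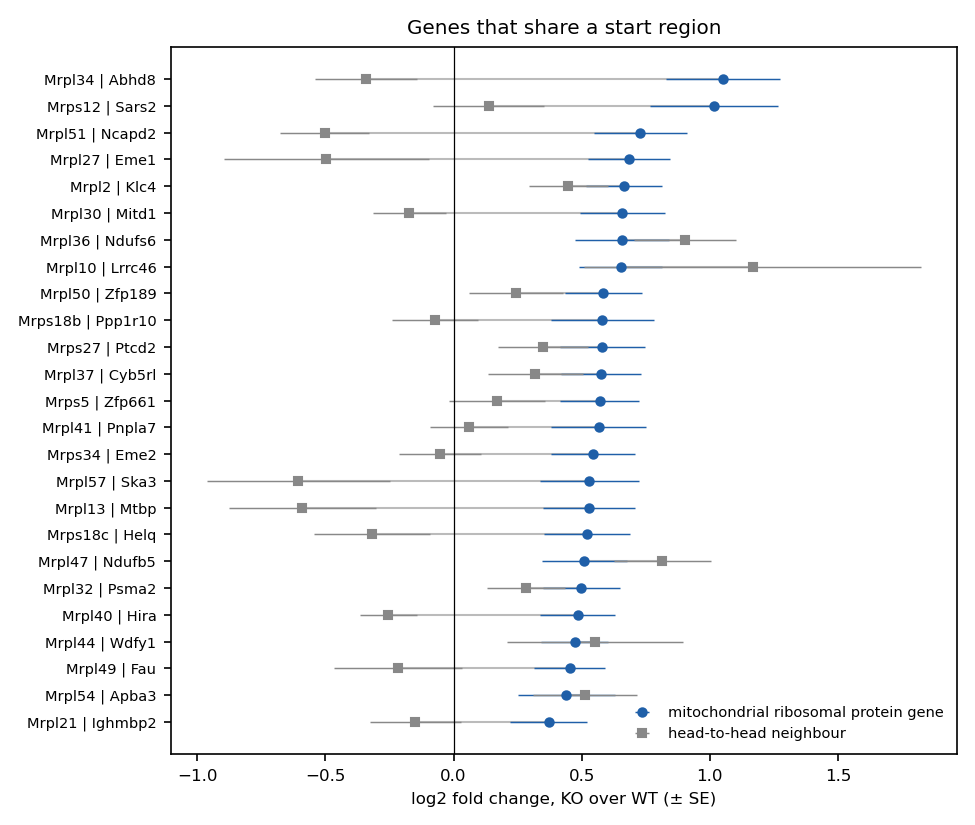
For each of the 25 pairs, log2 fold changes (KO over WT) of the member (blue circles) and of its head-to-head neighbour (grey squares) are plotted with bars of 1 standard error, ordered by the member's value. All members lie right of 0, and the neighbours scatter around a median of 0.06, from -0.61 for Ska3 to 1.17 for Lrrc46, which is at 0.0755 to 0.906 CPM over the 7 libraries.

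Promoter letters were searched in the RefSeq window from 250 bases before to 50 bases after the start, which was at hand for 69 of the 78 members and for 14137 coding genes, on both strands. The ETS letters CCGGAAG were in 26 member windows (37.7%, against 15.6% of coding genes), the NRF1 letters (GCGCA, any base, GCGC) in 13 (18.8%, against 8.77%) and the YY1 letters AAGATGGC in 12 (17.4%, against 4.13%). At least 1 of these 3 was in 43 windows (62.3%, against 25.3%). The GC box GGGCGG was in 34 (49.3%, against 58.7%), CCAAT in 27 (39.1%, against 42.2%), TATAAA in 5 (7.25%, against 11.2%), CACGTG in 5 (7.25%, against 10.2%), TGACGTCA in 2 (2.90%, against 2.98%) and the ERR letters TCAAGGTCA in 0 (against 0.368%). Members with and without a match had similar median log2 fold changes, at 0.53 and 0.57 for ETS letters, 0.53 and 0.57 for NRF1 letters, and 0.62 and 0.53 for YY1 letters. Several of these patterns share bases with one another, and a match is a match of letters only. The stretch of Mrpl34 holds the ETS letters and that of Mrps12 holds none of the 3 patterns. Their log2 fold changes were nonetheless close, at 1.05 and 1.02.

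Markers of several cell types in this fat pad differed between the groups, and their part in the result was not tested. Markers of white adipocytes were present in every library, and summed to 14878 to 22524 CPM in KO libraries and 7452 to 10658 CPM in WT libraries. Fabp4 reached 507184 counts in KO and 343212 in WT libraries, against at most 106923 for any other, so these sums lean on it. Lep reached 14964 counts in KO and 34417 in WT libraries. Of the 8, 7 had a log2 fold change above 0 and the lowest had -0.56. At an unadjusted p under 0.05, 5 of 8 were higher and 0 lower, beside 12.3% and 9.51% of all tested genes. Brown adipocyte markers summed to 2486, 635.7 and 1601 CPM in KO 1 to KO 3 and to 494.0, 185.9, 180.8 and 989.6 CPM in WT 1 to WT 4, with 4 of 6 higher. KO 2, the KO library with the lowest member levels, was also the lowest KO library in brown adipocyte markers, whereas KO 3 was the lowest in white adipocyte markers. WT 2, the highest WT library for most members, was the lowest of all 7 libraries in white adipocyte markers and next to the lowest in brown. All 7 macrophage markers were lower, with sums of 428 to 678 CPM in KO libraries and 1259 to 1837 CPM in WT libraries. Skeletal muscle markers summed to 13.1 to 127 CPM in KO libraries and 2.65 to 1062 CPM in WT libraries, where Ckm had 0 counts in 1 WT library and Myh4 in 2. Leaving out WT 2 and WT 4 together, the WT libraries highest in muscle markers, was a setting chosen after the data were seen. It gave 63 of 78 members higher at an unadjusted p under 0.05 (8.55% of all genes) with a median of 0.65. Without WT 2 alone the median was 0.62, and the part of muscle was not tested. None of the 4 B cell, 4 T cell or 3 endothelial markers passed an unadjusted p of 0.05, and of 4 progenitor and fibroblast markers 1 was lower. The skin keratins Krt5 and Krt14 were at or near 0. In a bulk sample, more cells of a type and more RNA per cell cannot be told apart.

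The counting also bears on single members. By GENCODE exons 33 of the 78 members overlap another gene, 28 on the opposite and 8 on the same strand, and although the library kit keeps strand, the strand setting of the counting is not given in the sources used here. The 45 members without overlap had a median log2 fold change of 0.59. Of these, 41 were higher at an unadjusted p under 0.05 (12.3% of all tested genes). The 5 pseudogenes left out held 225 to 377 counts per KO library and 215 to 339 per WT library in all. The members lie on 17 chromosomes, with at most 11 on any 1.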

How the data were processed

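RNA from inguinal fat was extracted with Trizol and made into stranded poly(A) libraries, per the labels' protocols. The authors deposited 1 table of whole-number read counts per gene for 7 libraries, and per the submitters' processing notes bcl2fastq 2.20.0, Trimmomatic, HISAT2 2.1.0, StringTie 1.3.4d and DESeq2 were used with mm10. How reads were counted, with which strand setting and annotation, is not given in the sources used here. Of 29517 Entrez identifiers, 29444 matched a RefSeq gene table of GRCm38.p6, which gave symbols, gene type and coordinates. Strand, exons and principal transcripts came from GENCODE M21 (GRCm38).

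Counts were analysed in R 4.3.3 with edgeR 4.0.16. Genes were kept by filterByExpr (minimum count 10), library sizes were adjusted by edgeR's TMM method, and KO was compared with WT by the quasi-likelihood F-test without covariates on the whole table, with Benjamini-Hochberg adjustment over 19185 genes. Standard errors come from the F statistic. CPM is the count scaled by the TMM-adjusted library size, in the usual CPM unit. DESeq2 1.42.0, limma-voom (limma 3.58.1), other scalings and filters, a replicate block and leaving out each library were alternatives. The scripts were tested on simulated data. No 2 libraries of the same group agreed within sampling noise. Members averaged 11.1 CPM or more in each group, and low counts limit Tm4sf5 and some head-to-head neighbours, such as Lrrc46, Eme1 and Ska3. Precision is set by 3 and 4 replicates, and a p-value rests only on the spread of these samples, which edgeR estimates with information shared across genes.

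The members and gene lists were chosen with earlier results of these data known, so lists are described by counts and medians with no test of their own. Named genes are, in each subunit, the 6 with the smallest p, the 2 lowest and 2 highest fold changes and the 2 highest and 2 lowest levels per kilobase, the 5 other mitoribosomal genes, up to 4 genes with the smallest p of each other list, and Tm4sf5. Other genes were named after their values were seen. Of 15 translation factors, Mtrfr was not matched.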

Additional observations from a re-analysis of the deposited data

Results flagged for a closer look

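In 5 of the 78 members, 1 WT library stood apart from the other 3 by Dixon's gap test, and chance flags about 1 in 20 groups. In each of the 5 the library was WT 2, and it was the highest. The gap over the range was 0.909 for Mrps25, which had 48.9 CPM in WT 2 and 28.4 to 30.3 CPM in the other WT libraries. It was 0.903 for Mrpl23, at 22.5 CPM in WT 2 and 17.98 to 18.4 CPM in the others, and 0.85 for Mrps24, at 24.3 CPM in WT 2 and 19.9 to 20.5 CPM in the others. For Mrps31 it was 0.838 and for Mrpl55 0.836. WT 2 was the highest WT library for 56 of the 78 members, so these flags share a library.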

How the results depend on the processing

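The direction held for all 78 members under every alternative except scaling by total counts alone. Under that scaling 1 gene of all passed an adjusted p under 0.05 in edgeR, 8 members were higher at an unadjusted p under 0.05 (3 large, 5 small), and the median log2 fold changes were 0.22 for all members, 0.21 for the large and 0.25 for the small subunit. Mrpl19 (-0.0047), Mrpl24 (-0.15), Mrpl52 (-0.21), Mrps15 (-0.026), Mrps25 (-0.091) and, outside the rule for named genes, Mrpl23 (-0.057) then lay below 0. Relative to the median of all genes, the members stood 0.58 higher under that scaling and 0.60 higher with TMM. DESeq2 called 1864 genes and 24 members at an adjusted p under 0.05, and limma-voom called 1 gene and 0 members. Leaving out 1 library gave 41 (without KO 1) to 74 (without KO 2) members higher at an unadjusted p under 0.05. Of all genes, 6.94% were higher without KO 1 and 11.9% without KO 2. The members higher were 24 to 47 of the large and 17 to 27 of the small subunit. Medians were 0.43 to 0.71, and the difference between large and small was -0.06 to -0.01. The same replicate numbers did not pair the samples (correlations of deviations 0.22, -0.17 and -0.02), and with the replicate number as a block 40 members (22 large) were higher, beside 8.71% of all genes. Across 16 alternatives, 799 values of 50 named genes were recomputed, of which 762 kept their direction and side of the threshold, 32 passed the adjusted threshold only with DESeq2 and 5 changed sign, and the cause was not tested. With the lowest member at 11.1 CPM in WT, the number of libraries rather than depth limits the comparisons of members, while some neighbours lie at about 1 CPM or lower.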
